A study of Mus musculus with 6 samples.

Results

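The genes described here coat lipid droplets, join them together or control the release of fatty acids from them, and they were measured in mouse fatty liver. They are the perilipins Plin2, Plin3, Plin4 and Plin5, the CIDE genes Cidea, Cideb and Cidec, the lipase gene Pnpla2, and its inhibitor genes G0s2 and Hilpda. Members were all probe sets that the array annotation assigns to exactly 1 of these 10 symbols, which gave 12 of the 45037 probe sets and 10 of the 18193 named genes. Of these, 11 probe sets of 9 genes were bright enough to be tested, and the Cidea probe set was not.

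The comparison was between 3 livers with Nfkbiz delivered by an AAV8 vector (AAV8-Nfkbiz) and 3 livers with luciferase delivered in the same way (AAV8-luciferase), with 1 array each. AAV8 is an adeno-associated virus serotype that transduces mouse liver, and Nfkbiz encodes the nuclear protein IκBζ. All mice were C57BL/6, received the vector by vein, and 4 weeks later began 4 weeks of CDAHFD, a high-fat diet without choline and with defined amino acids that produces fatty liver, so both groups carry a vector and the diet. The promoter of the vector, the age and sex of the animals, their feeding state and the time of sampling are not known here, and neither lipid droplets nor proteins were measured.

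A hepatocyte stores triglyceride in droplets bounded by a phospholipid monolayer. Perilipins sit on that monolayer and govern the access of lipases, CIDE proteins move lipid from small droplets to large ones, and adipose triglyceride lipase, the product of Pnpla2, cuts the first fatty acid from triglyceride. The products of G0s2 and Hilpda bind that lipase and inhibit it. Many of these genes respond to fatty acids through the PPAR nuclear receptors, and Plin2 protein is widely used as a marker of stored lipid in liver.

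None of the 11 tested probe sets passed the threshold between the vectors. Plin2 and Hilpda were the 2 whose arrays did not overlap between the groups, both higher with AAV8-Nfkbiz, by 1.33-fold and 1.38-fold. Of all tested probe sets, 16.7% had groups that did not overlap, 7.03% with AAV8-Nfkbiz higher. G0s2 had the largest difference of the tested members, 1.75-fold higher, and it rested on 1 luciferase liver. Plin3, Plin4, Plin5, Cideb and the brighter Pnpla2 probe set had small negative differences that did not pass.

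Promoters of 3 members are shown, Plin2 and Hilpda because their groups did not overlap and Pnpla2 because its product is the lipase that G0s2 and Hilpda inhibit. The sequences run from 250 bases upstream to 50 bases downstream of a RefSeq start site (GRCm38.p6), written 5′ to 3′ on the strand of the gene, and capitals mark every match to a motif searched. The Plin2 window lies at chr4:86670010-86670309 on the minus strand, the Hilpda window, the second of 2 for that gene, at chr6:29272376-29272675 on the plus strand, and the Pnpla2 window at chr7:141454938-141455237 on the plus strand.
Plin2: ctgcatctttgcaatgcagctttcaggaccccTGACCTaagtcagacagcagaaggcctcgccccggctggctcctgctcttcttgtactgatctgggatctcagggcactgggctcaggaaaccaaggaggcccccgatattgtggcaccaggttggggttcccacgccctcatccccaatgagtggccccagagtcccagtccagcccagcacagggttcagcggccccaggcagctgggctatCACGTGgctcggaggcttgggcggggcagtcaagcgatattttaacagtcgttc
Hilpda: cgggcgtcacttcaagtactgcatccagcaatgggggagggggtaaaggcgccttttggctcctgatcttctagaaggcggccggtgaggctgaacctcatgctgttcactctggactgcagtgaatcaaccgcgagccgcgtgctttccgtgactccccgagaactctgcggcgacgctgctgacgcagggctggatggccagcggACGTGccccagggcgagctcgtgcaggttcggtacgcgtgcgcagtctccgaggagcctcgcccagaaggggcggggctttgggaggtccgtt
Pnpla2: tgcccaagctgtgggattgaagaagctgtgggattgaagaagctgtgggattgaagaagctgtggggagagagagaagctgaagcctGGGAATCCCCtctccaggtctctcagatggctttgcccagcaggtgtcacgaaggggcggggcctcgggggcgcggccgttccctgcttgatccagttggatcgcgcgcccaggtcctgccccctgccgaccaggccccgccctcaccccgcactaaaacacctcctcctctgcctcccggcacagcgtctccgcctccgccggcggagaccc

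Both strands of 12 windows from 9 members were searched, and no Cidea window was used here. The E-box CACGTG, a site of basic helix-loop-helix factors, was found in the Plin2 window, with its first base 4 bases upstream of the start, and in 7.15% of all 32851 windows of this length. ACGTG, the core of hypoxia response elements, lies within the E-box. It was found in the Plin2 window, 43 bases upstream of the start in the Hilpda window shown, and in 19.6% of all windows. The other Hilpda window held no match to any motif searched. The nuclear receptor half-site AGGTCA was found in the Plin2 window, 218 bases upstream on the other strand, and in both Plin5 windows, against 16.3% of all windows. The kappaB consensus was matched in the Pnpla2 window, 163 bases upstream, and in 4.51% of all windows. The full PPAR element searched, AGGTCANAGGTCA, was in none of the 12 windows and in 0.04% of all windows. A match describes the letters in these windows and nothing about binding.

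Values are MAS5 intensities, linear and scaled by the authors so that each array has the same trimmed mean. Medians of the arrays lay between 78.2 and 95.2. Each log2 difference is the AAV8-Nfkbiz mean minus the AAV8-luciferase mean, tested with limma over the 27022 probe sets whose mean log2 intensity over all 6 arrays lay above that of an intensity of 47.4 (a geometric mean), and the threshold was a Benjamini-Hochberg adjusted p of 0.05. The number of arrays limits the precision. A p-value here reflects only the spread among these 6 samples, in which differences between animals and technical differences cannot be told apart. Nfkbiz checked the labels: probe set 1448728_a_at read 4424, 4073 and 2006 in AAV8-Nfkbiz livers, against 221.4, 229.5 and 179.7 in AAV8-luciferase livers. The check rests on that probe set. Groups overlapped on the other Nfkbiz probe sets, 1417483_at (log2 difference 0.30, limma adjusted p = 0.603) and 1457404_at (-0.89, limma adjusted p = 0.594). The third luciferase array stood apart from the rest on the second principal component, at 76.1, where the other 5 lay between -22.8 and -8.47. Of 8 listed hepatocyte markers, 7 had a probe set named here, all 7 above the filter, and their summed intensity ranged from 219636 to 251663 in AAV8-Nfkbiz livers and from 230547 to 266268 in AAV8-luciferase livers. Of these markers 3 had a positive difference. Past the threshold 0 rose and 1, the tyrosine aminotransferase gene Tat, fell (log2 difference -1.17, limma adjusted p = 0.0289). In whole liver, fewer cells of a type and less RNA per cell cannot be told apart.

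**Figure D1:**
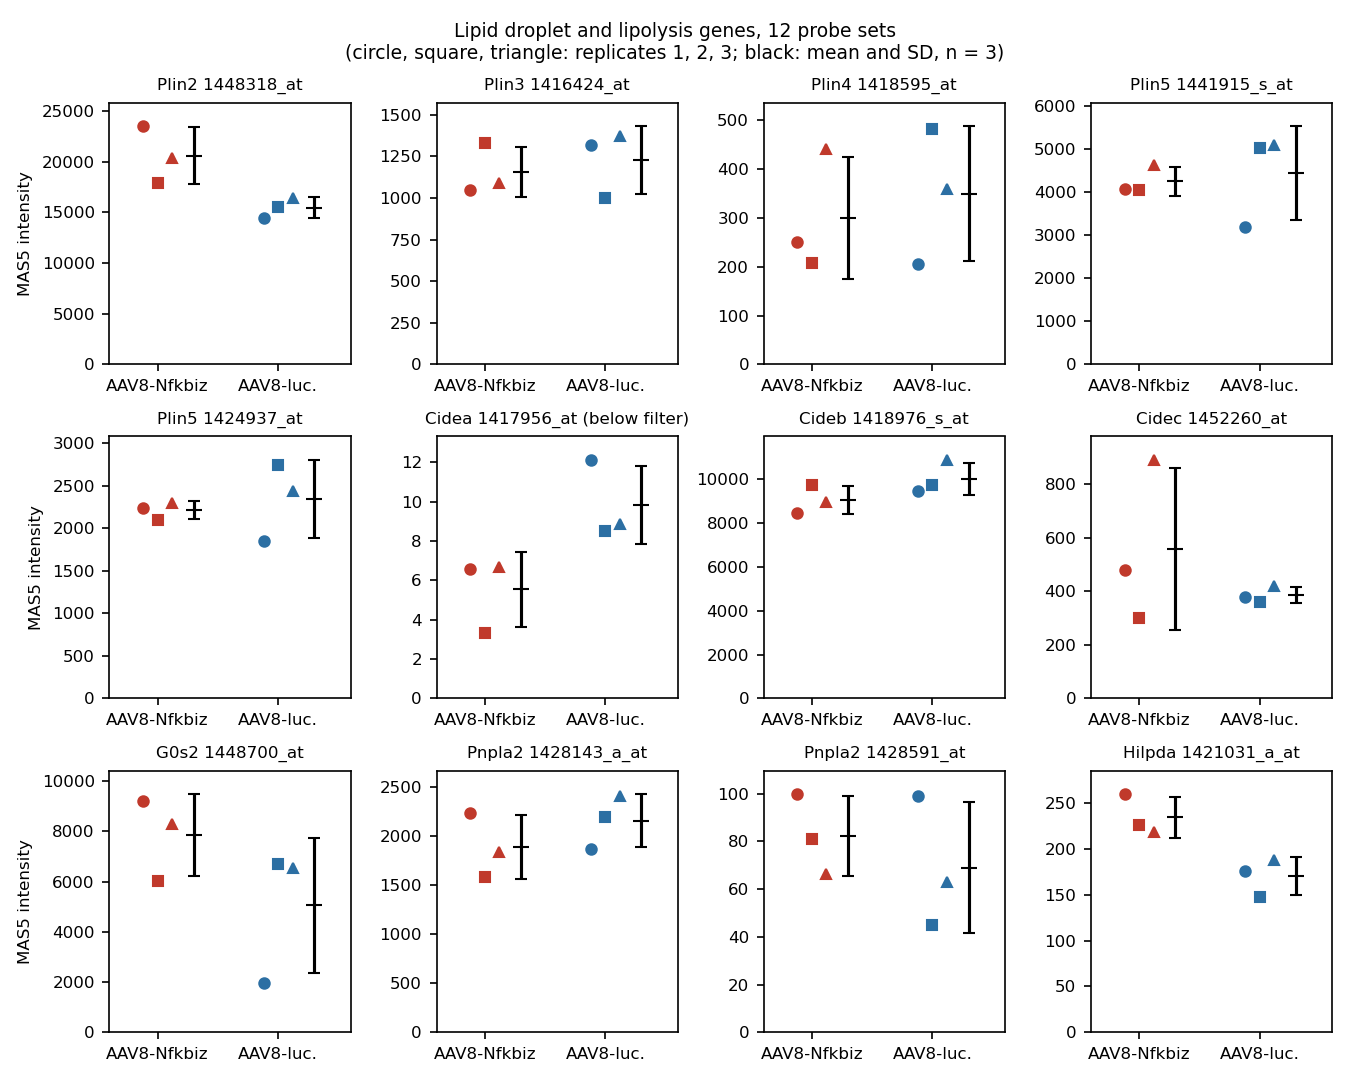
MAS5 intensity (linear axis from 0) of each of the 12 probe sets in AAV8-Nfkbiz livers (red, left) and AAV8-luciferase livers (blue, right). Each symbol is 1 array (circle, square and triangle for replicates 1, 2 and 3) and the black bar is the mean with SD, n = 3. Plin2 and Hilpda lie above all luciferase arrays, G0s2 is low in the first luciferase liver alone, and Cidec is high in the third Nfkbiz liver alone.

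Among the perilipins, Plin2, the main droplet coat protein of hepatocytes, had the most distinct groups. Its probe set 1448318_at read 23493, 17911 and 20361 in AAV8-Nfkbiz livers, against 14428, 15508 and 16466 in AAV8-luciferase livers. Every AAV8-Nfkbiz liver was above every AAV8-luciferase liver. The means were 20588 ± 2798 and 15467 ± 1020 (SD, n = 3 each). The log2 difference was 0.41 ± 0.13 (SE), with a 95% interval from 0.11 to 0.70, or 1.08-fold to 1.63-fold (limma unadjusted p = 0.0119, adjusted p = 0.341). Of all tested probe sets, 3.49% had a smaller p. The first AAV8-Nfkbiz liver was the highest, and without it the difference was 0.31.

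Plin3, the perilipin that moves between the cytosol and newly forming droplets, read 1049, 1329 and 1093 in AAV8-Nfkbiz livers, against 1317, 998 and 1373 in AAV8-luciferase livers (probe set 1416424_at). The groups overlapped throughout. A log2 difference of -0.08 ± 0.17 (SE) was found, with a 95% interval from -0.46 to 0.29 (limma adjusted p = 0.892). Without the third luciferase array it was 0.0048.

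Plin4, a perilipin of adipose tissue and muscle that carries a long run of repeats, varied more between livers than between groups. Probe set 1418595_at read 250.5, 206.8 and 441 in AAV8-Nfkbiz livers, against 206.4, 482 and 360.3 in AAV8-luciferase livers. High and low livers occurred in both groups, with coefficients of variation of 41.6% and 39.5%. The log2 difference was -0.22 ± 0.35 (SE), with a 95% interval from -0.997 to 0.563 (limma adjusted p = 0.86). It was 0.01 without the second AAV8-Nfkbiz array and 0.06 without the second luciferase array.

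Plin5, which coats droplets in oxidative tissues and holds them near mitochondria, was read by 2 probe sets. The brighter, 1441915_s_at, read 4077, 4040 and 4634 in AAV8-Nfkbiz livers, against 3178, 5032 and 5096 in AAV8-luciferase livers. The other, 1424937_at, read 2241, 2094 and 2299 in AAV8-Nfkbiz livers, against 1854, 2749 and 2439 in AAV8-luciferase livers. On both, the AAV8-Nfkbiz livers lay inside the range of the luciferase livers, and the first luciferase liver was the lowest of all 6. The coefficients of variation were 7.83% in AAV8-Nfkbiz and 24.6% in AAV8-luciferase livers on the first probe set, and 4.79% and 19.4% on the second. A difference in spread was not tested. The log2 differences were -0.03 ± 0.18 and -0.07 ± 0.16 (SE, limma adjusted p = 0.968 and 0.906), and their signs changed in some of the alternatives given in the closing section. The 95% interval of the brighter probe set, from -0.44 to 0.38, runs from 0.737-fold to 1.3-fold.

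The CIDE genes differed from each other in level of detection and in spread. Cideb, the CIDE gene of normal hepatocytes, with roles in droplets and in the lipidation of VLDL, read 8445, 9729 and 8977 in AAV8-Nfkbiz livers, against 9459, 9738 and 10873 in AAV8-luciferase livers (probe set 1418976_s_at). The ranges overlapped, with the second AAV8-Nfkbiz liver level with the second luciferase liver. Its log2 difference was -0.15 ± 0.12 (SE), with a 95% interval from -0.41 to 0.12 (limma adjusted p = 0.694).

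Cidec, also known as Fsp27, drives the growth of large droplets in fat cells and is induced in fatty liver. Its probe set 1452260_at read 481.1, 298.4 and 888.7 in AAV8-Nfkbiz livers, against 378.6, 360.1 and 417.8 in AAV8-luciferase livers. The 3 luciferase livers lay close together, while the AAV8-Nfkbiz livers included both the lowest and the highest of the 6, so that the highest was 2.98 times the lowest. Coefficients of variation were 54.3% in AAV8-Nfkbiz and 7.64% in AAV8-luciferase livers. The log2 difference was 0.39 ± 0.33 (SE), with a 95% interval from -0.34 to 1.12 (limma adjusted p = 0.707). Without the third AAV8-Nfkbiz liver it was -0.02, and without the second it was 0.77. The third AAV8-Nfkbiz liver also had the lowest Nfkbiz reading of its group on 1448728_a_at, 2006. Whether these readings are related was not tested.

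Cidea, a CIDE gene of brown fat that is induced in steatotic mouse liver, was read near the bottom of the scale and was not tested. Probe set 1417956_at read 6.6, 3.34 and 6.69 in AAV8-Nfkbiz livers, against 12.1, 8.5 and 8.85 in AAV8-luciferase livers, all far below 47.4. The groups did not overlap, but with 16 added to each intensity the log2 difference of -0.88 became -0.26.

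Lipolysis genes showed no difference past the threshold. Pnpla2, the gene of adipose triglyceride lipase, was read by probe set 1428143_a_at at 2232, 1584 and 1843 in AAV8-Nfkbiz livers, against 1874, 2193 and 2408 in AAV8-luciferase livers. The first AAV8-Nfkbiz liver lay among the luciferase livers and the other 2 lay below them. For this probe set the log2 difference was -0.20 ± 0.16 (SE), with a 95% interval from -0.56 to 0.16 (limma adjusted p = 0.692). The dimmer probe set, 1428591_at, read 99.8, 81.1 and 66.2 in AAV8-Nfkbiz livers, against 99, 45 and 63.2 in AAV8-luciferase livers. Its log2 difference had the opposite sign, 0.31 ± 0.42 (SE, limma adjusted p = 0.829), and its 95% interval from -0.62 to 1.24 contains that of the brighter one. Leaving out 1 array at a time gave -0.33 (without the first AAV8-Nfkbiz array) to -0.08 (without the second) for the brighter probe set. The dimmer one ranged from 0.04 without the second luciferase array to 0.61 without the first.

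G0s2, whose product binds the lipase and blocks it, had 1 liver far from the others. Probe set 1448700_at read 9194, 6023 and 8287 in AAV8-Nfkbiz livers, against 1948, 6686 and 6522 in AAV8-luciferase livers. The first luciferase liver was at 0.295 of the mean of the other 2 of its group, and the remaining 5 livers lay between 6023 and 9194. The groups overlapped, since the second AAV8-Nfkbiz liver was below 2 luciferase livers. The log2 difference was 0.81 ± 0.40 (SE), with a 95% interval from -0.09 to 1.71 (limma unadjusted p = 0.0714, adjusted p = 0.511). Without the first luciferase array it was 0.22, with an adjusted p of 0.775, and without the second it was 1.11. That same liver was the lowest of the 6 on 5 of the 12 probe sets, those of Plin2, Plin4 and G0s2 and both of Plin5. It was at 0.49 of the mean of the other luciferase livers for Plin4, 0.628 and 0.715 for Plin5, and 0.902 for Plin2. It was not low for Plin3, at 1.11, or Hilpda, at 1.05. Its 6 stellate cell markers had the highest sum of all livers, 24535, where the others ranged from 13657 to 19563, its 7 hepatocyte markers summed to 230547, and its array had the highest median intensity, 95.2. Their part in the G0s2 and Plin5 readings was not tested.

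Hilpda, a small droplet protein induced by hypoxia and by fatty acids, which also inhibits the lipase, read 259.2, 225.3 and 217.7 in AAV8-Nfkbiz livers, against 176.2, 147.3 and 187.4 in AAV8-luciferase livers (probe set 1421031_a_at). As with Plin2, every AAV8-Nfkbiz liver was above every AAV8-luciferase liver. The means were 234.1 ± 22.1 and 170.3 ± 20.7 (SD, n = 3 each). Hilpda had a log2 difference of 0.46 ± 0.21 (SE), with a 95% interval from -0.02 to 0.94 (limma unadjusted p = 0.0564, adjusted p = 0.484). Leaving out 1 array at a time gave differences between 0.36 and 0.54 for Hilpda and between 0.31 and 0.50 for Plin2.

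**Figure D2:**
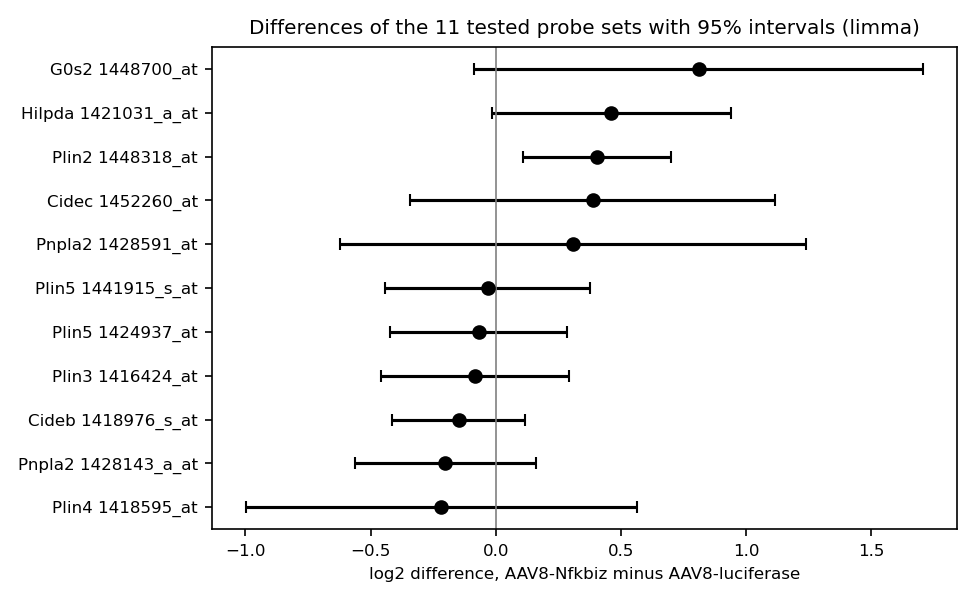
Log2 difference, AAV8-Nfkbiz minus AAV8-luciferase, of the 11 tested probe sets (points) with limma's 95% intervals (bars), ordered by size. Plin2 has an interval that lies wholly above 0, from 0.11 to 0.70, before adjustment for the number of probe sets tested, and the other 10 intervals include 0.

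Counted over the members, 0 of the 11 tested probe sets passed limma's threshold, where 0.0703% of all tested probe sets did (19 of 27022, 0.0185% higher and 0.0518% lower). At an unadjusted p below 0.05 there was 1 of 11, Plin2, against 10.6% of all. That count of 1 depended on single arrays: it was 0 without the first AAV8-Nfkbiz array, 2 without the second AAV8-Nfkbiz or the second luciferase array, and 3 without the third luciferase array, while the count over all probe sets ranged from 1985 to 3694. With the brightest probe set or the mean of probe sets standing for each gene, limma also called 0 of 9. At an unadjusted p below 0.05 there was 1 of 9 with the brightest probe set, against 12% of all 13312 genes in that fit, and 2 of 9 with the mean, against 10% of 12126. The groups did not overlap, with AAV8-Nfkbiz higher, for 2 of 11 probe sets, against 7.03% of all, and with AAV8-Nfkbiz lower for 0 of 11, against 9.69% (16.7% of all in either direction). Positive differences were found for 5 probe sets and negative ones for 6, with a median of -0.03. Over all tested probe sets the median was -0.02, and 47.0% were positive. The differences ranged from -0.22 for Plin4 to 0.81 for G0s2.

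**Figure D3:**
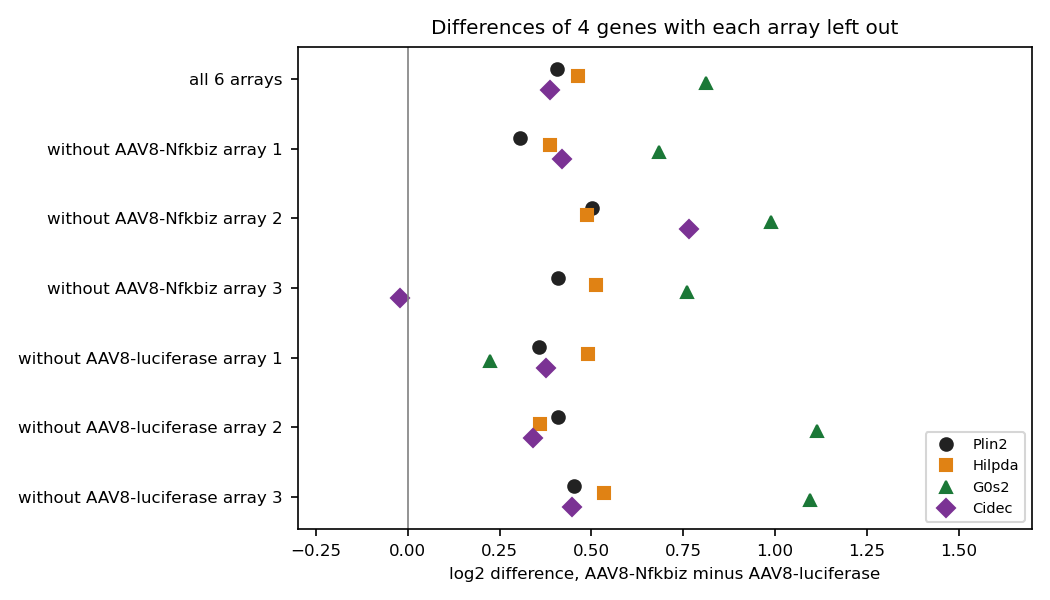
Log2 difference of Plin2, Hilpda, G0s2 and Cidec (AAV8-Nfkbiz minus AAV8-luciferase) with all 6 arrays (top row) and with each array left out in turn. Plin2 and Hilpda stay between 0.31 and 0.54, G0s2 drops to 0.22 without the first luciferase array, and Cidec lies at -0.02 without the third AAV8-Nfkbiz array.

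Several of these genes are also active in cells other than hepatocytes, and the markers of those cells were read on the same arrays. Plin2 is used by lipid-laden macrophages. All 10 macrophage and Kupffer cell markers listed were above the filter, 8 had a positive difference, and 0 passed limma's threshold. The markers differed among themselves. Clec4f, Vsig4 and Timd4 had log2 differences of 1.07, 1.05 and 1.22 (limma adjusted p = 0.254 for each). Trem2 had a smaller one of 0.26 (limma adjusted p = 0.794), and Csf1r and Gpnmb were negative, at -0.05 and -0.45. The summed intensity of the 10 markers ranged from 29960 to 39478 in AAV8-Nfkbiz livers and from 23415 to 30853 in AAV8-luciferase livers. The part of these cells in the Plin2 difference was not tested. Of 8 adipocyte markers, relevant to Plin4, Cidec and Pnpla2, 5 had a probe set of their own, and the defining ones Adipoq, Lep and Retn were below the filter, with Retn at a mean of 45 in AAV8-Nfkbiz livers and 73.8 in AAV8-luciferase livers. The summed adipocyte markers ranged from 2160 to 2493 in AAV8-Nfkbiz livers and from 1457 to 2196 in AAV8-luciferase livers, and Fabp4, which macrophages and endothelium also express, made up most of that sum. Of 3 brown adipocyte markers, Ucp1, the defining gene of brown fat, was below the filter. The tested ones, Elovl3 and Cox7a1, had log2 differences of 0.39 and -0.22 (limma adjusted p = 0.655 and 0.85). Sums over the 3 ranged from 1666 to 2013 in AAV8-Nfkbiz livers and from 905 to 2152 in AAV8-luciferase livers. Elovl3 made up most of these sums, with means of 1750 in AAV8-Nfkbiz and 1427 in AAV8-luciferase livers. Cox7a1 had means of 91.4 and 110.5.

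Markers of the remaining cell types were read as well, and 0 of them passed limma's threshold. All 5 endothelial markers had a positive difference, and their sums ranged from 6822 to 8507 in AAV8-Nfkbiz livers and from 3582 to 7569 in AAV8-luciferase livers. Of 6 stellate cell markers 1 was positive, with sums from 13657 to 17696 in AAV8-Nfkbiz livers and from 14263 to 24535 in AAV8-luciferase livers. The sums of 4 T and NK cell markers, 3 of them positive, did not overlap, at 635 to 1050 in AAV8-Nfkbiz livers and 371 to 504 in AAV8-luciferase livers. Gzma had the largest difference of these 4, 1.77 (limma adjusted p = 0.067), with means of 356.3 in AAV8-Nfkbiz and 101.5 in AAV8-luciferase livers. Cd3e went the other way, at -0.67. All 3 neutrophil markers were positive, with sums from 933 to 2449 in AAV8-Nfkbiz livers and from 599 to 1163 in AAV8-luciferase livers. Of 3 tested cholangiocyte markers 1 was positive, with sums over 4 markers from 324 to 598 in AAV8-Nfkbiz livers and from 434 to 693 in AAV8-luciferase livers, and of 2 tested muscle markers 0 were positive. The part of these cells in the values of Plin2, Hilpda and the other members was not tested.

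Other genes of droplet formation and lipolysis did not pass either. Of 42 symbols listed, 34 had a probe set of their own, and 0 of their 71 tested probe sets passed limma's threshold, where 1 was higher and 2 were lower at an unadjusted p below 0.05, against 4.14% and 6.47% of all. The sum of 3 was 0 without the first AAV8-Nfkbiz array, 8 without the second luciferase array and 5 without the third, and 2 or 3 without any of the others. Their median log2 difference was 0.04, with 42 positive and 29 negative, where 47.0% of all tested probe sets were positive. Dgat2 and Dgat1, which add the last fatty acid to triglyceride, had differences of -0.26 ± 0.14 and -0.25 ± 0.14 (SE, limma adjusted p = 0.541 and 0.555), and a dim second Dgat1 probe set read 0.45 ± 0.68. Bscl2, the gene of the droplet assembly protein seipin, had -0.29 ± 0.14 (limma adjusted p = 0.5). Pcyt1a, which controls the synthesis of phosphatidylcholine for the droplet surface, had -0.33 ± 0.14 (limma adjusted p = 0.466), and its other 3 probe sets had positive differences of 0.25, 0.15 and 0.09. Ces1d, a triglyceride hydrolase of hepatocytes, had 0.30 ± 0.14 (limma adjusted p = 0.491). Pnpla3, the relative of the lipase that is tied to fatty liver in humans, read 103.2, 69.2 and 80.3 in AAV8-Nfkbiz livers, against 55, 6.58 and 61.6 in AAV8-luciferase livers, with a difference of 1.56 ± 0.81 (limma adjusted p = 0.531). Its groups did not overlap, and the second luciferase liver was far below the rest. Without that array the difference was 0.51 (limma adjusted p = 0.758). The probe set passed the filter only through the AAV8-Nfkbiz livers, since its luciferase mean was 41.1, and it was below the filter when any AAV8-Nfkbiz array or the third luciferase array was left out. The lipase coactivator Abhd5 read 1026 ± 70.2 in AAV8-Nfkbiz livers and 922 ± 13.2 in AAV8-luciferase livers (SD, n = 3 each, limma adjusted p = 0.72), and a second probe set had a difference of -0.10.

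Transcription factors and coactivators known to act on the members were mostly read lower with AAV8-Nfkbiz, with 36 probe sets negative and 8 positive. Over all tested probe sets, 47.0% had a positive difference. Of 44 tested probe sets of 20 genes, 1 fell past limma's threshold, that of Foxo3, and 0 rose past it. At an unadjusted p below 0.05 there were 19 lower and 0 higher, against 6.47% and 4.14% of all tested probe sets. Probe sets of 1 gene share its transcript, and with the brightest probe set of each gene 9 of 20 were lower at that level, against 7% of all genes in that fit. The list was chosen with earlier results of these data known, so these counts are not independent of the data and no excess can be read from them. The list's median was -0.28. Foxo3, a forkhead factor of the fasted state, read 447.1, 508.9 and 815.2 in AAV8-Nfkbiz livers, against 1614, 1765 and 1561 in AAV8-luciferase livers, a fall of 1.53 on the log2 scale (log2 difference -1.53 ± 0.21 SE, limma adjusted p = 0.0445). The adjusted p was at or above the threshold when 1 array was left out, except for the third AAV8-Nfkbiz array. With the replicate number as a block it was 0.0559, and without the variance trend, the highest of all alternatives, 0.427. A dimmer tested Foxo3 probe set, 1434832_at, had a smaller difference of -0.81 ± 0.14 (SE, limma adjusted p = 0.0844) and did not pass. Foxo1, known to raise Pnpla2 and lower G0s2 in hepatocytes, had differences of -0.93 ± 0.16, -0.92 ± 0.16 and -0.71 ± 0.19 on its 3 brighter probe sets (limma adjusted p = 0.0844, 0.0844 and 0.254). Ppargc1a, a coactivator of PPARα, had -1.24 ± 0.21 on its brightest probe set (limma adjusted p = 0.0759), and Srebf1, a lipogenic factor, had -0.65 ± 0.16 (limma adjusted p = 0.238). Cebpb and Mlxipl had -0.60 ± 0.16 and -0.58 ± 0.20 (limma adjusted p = 0.254 and 0.368). Between the regulators that were read lower and the members no relation was tested, and the median of the members was -0.03.

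**Figure D4:**
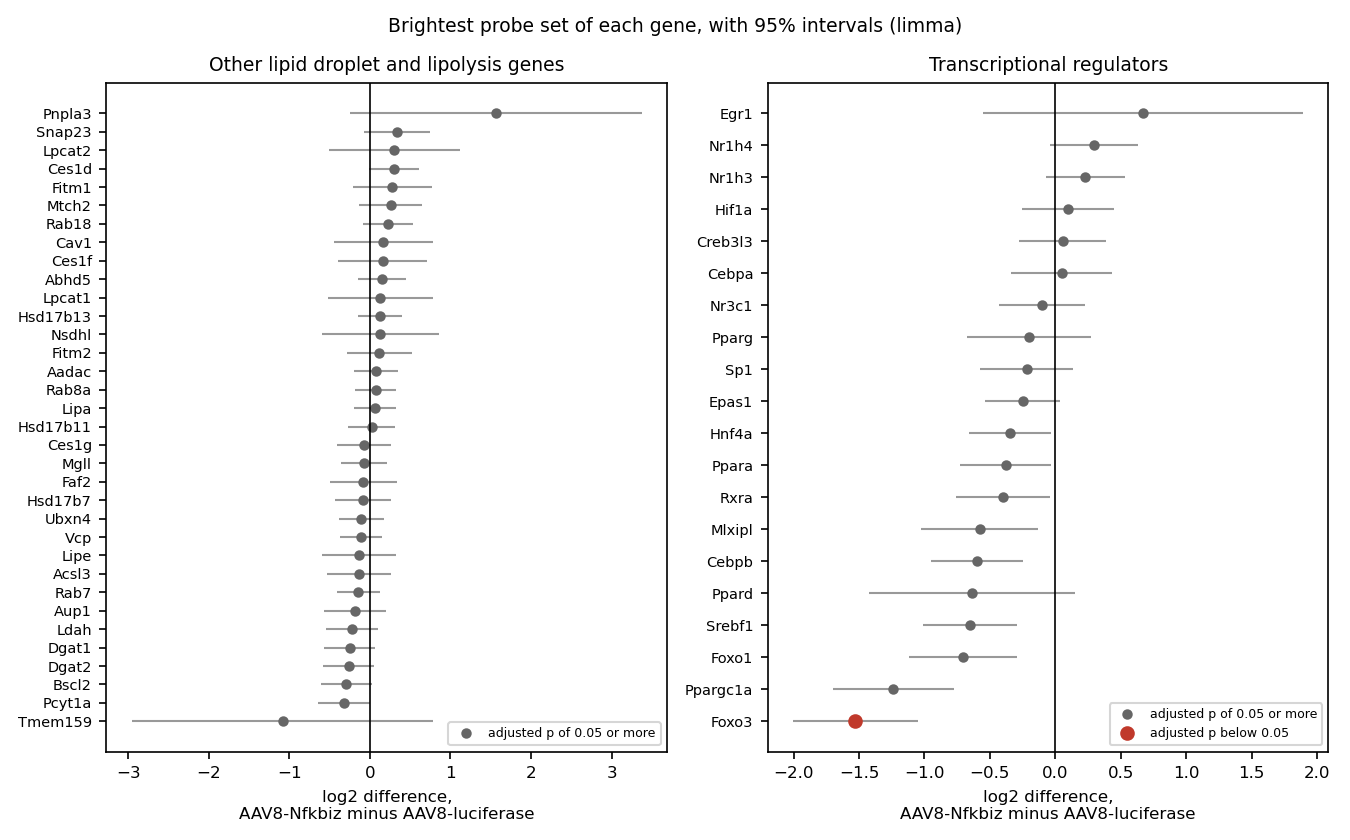
Log2 difference (AAV8-Nfkbiz minus AAV8-luciferase) of the brightest probe set of each gene with limma's 95% interval, for 34 other lipid droplet and lipolysis genes (left) and 20 transcriptional regulators (right). The droplet genes lie on both sides of 0 around a median of 0.04, while 14 of the 20 regulators lie below 0, with Foxo3 (red), at -1.53, the one past the threshold. Over all tested probe sets, 47.0% had a positive difference.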

How the data were processed

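Liver RNA from 6 mice was hybridised to 1-colour Affymetrix 3′ expression arrays, with 100 ng of total RNA labelled per the labels' protocols. The deposited intensities are linear MAS5 signals that the authors scaled per array, per the submitters' processing notes and the values themselves, whose 2% trimmed means lay between 495.2 and 496.3. MAS5's version is not given in the sources used here. Of 45037 probe sets, 34945 had 1 gene symbol in the GEO platform annotation, 932 had several and 9160 were not listed. Entrez identifiers of 34741 were found in a RefSeq gene table (GRCm38.p6), changing 0 symbols.

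Intensities were log2-transformed without a pseudocount or further normalization. The 40% of probe sets with the lowest mean log2 intensity were left out, and limma 3.58.1 (lmFit, eBayes with trend) in R 4.3.3 was fitted once over the other 27022, two-sided, with Benjamini-Hochberg adjustment. Errors of differences are moderated standard errors, and 95% intervals use limma's posterior degrees of freedom, unadjusted. The procedure was tested on simulated data with independent noise for each probe set. The shifts planted there were larger than any difference of the tested members, so the recovery of differences of that size was not tested. All members were named, with Nfkbiz, and from the pathway and regulator lists the genes past the threshold and up to 6 with the smallest p (brightest probe set of the gene). Abhd5 was named after its values were seen. Members and lists were chosen with earlier results of these data known. The samples were grouped by title. Alternatives covered the normalization, filter, pseudocount, variance prior, array weights, 1 value per gene, a replicate block and leaving out each array. Promoter sequences are RefSeq's, and plots were made in Python 3.11.15 with matplotlib 3.10.9.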

Additional observations from a re-analysis of the deposited data

How the results depend on the processing

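Under all 19 alternatives 0 member probe sets and 0 probe sets of the pathway list passed, so their calls did not change with these settings. Of 223 member values recomputed, 10 changed sign, none of them of Plin2, Hilpda, G0s2 or Cideb. With 1 array left out, Plin3 ranged from -0.225 to 0.0048 (above 0 without the third luciferase array), Plin4 from -0.555 to 0.0572 (above 0 without the second AAV8-Nfkbiz array, at 0.0115, or the second luciferase array) and Cidec from -0.022 (without the third AAV8-Nfkbiz array) to 0.765. Plin5 1424937_at ranged from -0.229 to 0.0552 (above 0 without the second luciferase array), and Plin5 1441915_s_at from -0.256 to 0.0851 (above 0 without the second AAV8-Nfkbiz array, at 0.0037, the second luciferase array, at 0.076, or the third), with 0.00198 after median centring. With the mean of probe sets per gene Pnpla2 was at 0.0537, Pcyt1a at 0.0431 and Dgat1 at 0.0994. The adjusted p ranged over the alternatives from 0.17 to 0.625 for Plin2, from 0.298 to 0.713 for Hilpda and from 0.301 to 0.775 for G0s2. Plin2's difference was 0.30 after quantile normalization.

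The count over all probe sets, 19, became 30 genes with the brightest probe set per gene, 29 after quantile normalization, 46 with the lowest 60% left out, 39 with a pseudocount of 64, 77 with array weights and 0 without the variance trend (2429 at an unadjusted p below 0.05), and between 8 and 33 with 1 array left out. For the regulators the count of 1 became 2 with the brightest probe set per gene, 3 with the lowest 60% left out, 6 with array weights, and 0 after median centring, without the trend and with the replicate block, and 0 to 1 with 1 array left out. The replicate numbers gave no sign of pairing the arrays: deviations of same-numbered arrays from their group means correlated at -0.03, 0.07 and 0.01. Not every array correlated best with its own number. With 3 arrays per group such correlations cannot exclude a pairing. With the replicate block 0 members and 28 probe sets in all passed. The adjusted p of Foxo3 was 0.0528 after median centring. Causes of these changes were not tested. Detection calls and background signals were not used here, so how far dim probe sets, such as that of Cidea, stood above background is not known.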

Other observations

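A pair of dim probe sets on the lists, below the filter on mean log2 intensity and therefore not tested, had groups that did not overlap. Of all tested probe sets 16.7% had such groups, 9.69% with AAV8-Nfkbiz lower. The share among probe sets below the filter was not counted here, so no excess can be read from this pair. Both were picked after their values were seen. Foxo3 1450236_at read 18.3 ± 3.94 in AAV8-Nfkbiz livers and 110.9 ± 6.87 in AAV8-luciferase livers (SD, n = 3 each), and Lipe 1432180_at, of the hormone-sensitive lipase gene, read 22.3 ± 5.34 and 68.3 ± 6.19. The brighter Lipe probe set, 1422820_at, had a log2 difference of -0.14 (limma adjusted p = 0.849), with 371.1 ± 50.1 in AAV8-Nfkbiz livers and 411.2 ± 82 in AAV8-luciferase livers.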
